A study of Mus musculus with 3 samples.

Results

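Bone resorption enzymes and the calcitonin receptor were followed as 5 genes picked by symbol, Ctsk, Acp5, Mmp9, Mmp14 and Calcr, out of 54532 genes in the table. RNA had been sequenced from RAW264.7, an established mouse macrophage line of wild-type genotype whose cells turn into osteoclasts under RANKL, the cytokine that drives this differentiation. Cultures of all groups had 3 days of RANKL. A group without thyroid stimulating hormone (TSH) is labelled 0 h, and the others had TSH at 10 mU/mL for 2 h or for 24 h, with 1 library in each of the 3 groups. The table names its TSH columns T1 and T2, and these names do not tell which had 2 h and which 24 h. They are therefore kept as T1 and T2, and TSH cannot be told apart from the hours in culture that may go with it.

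Osteoclasts dissolve bone by sealing off a patch of its surface and secreting acid and enzymes into the space beneath. Cathepsin K (Ctsk) is the cysteine protease that cleaves bone collagen, and tartrate-resistant acid phosphatase (Acp5, TRAP) is the enzyme whose staining marks osteoclasts. MMP9 is a secreted gelatinase, and MMP14 is a matrix metalloprotease anchored in the cell membrane. The calcitonin receptor (Calcr) is a G protein-coupled receptor through which calcitonin stops resorption, and it is known as a late marker of the mature osteoclast.

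Ctsk stood at 0.736 of its level without TSH in T1 and at 0.733 in T2, and the other members were lower as well, at ratios from 0.460 to 0.933. The values below are FPKM, the deposited unit, which divides fragments by gene length and depth, so that levels can be set beside each other between genes. Summed reads came to between 16156926 and 17390744 a library. With 1 library a group there is no replicate error and no test. Each ratio has a 95% interval from the reads (exact conditional, Clopper-Pearson), which covers counting error only and compares libraries, not conditions. A ratio is called lower or higher beyond counting error where that interval leaves out 1. A change in a culture of many cells cannot separate fewer osteoclasts from less RNA in each.

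The windows around the transcription starts of Ctsk, Acp5 and Mmp14 are printed first, since NFATc1, PU.1 and MITF are known regulators of osteoclast genes such as Ctsk and Acp5. Each holds 250 bases before and 50 after a start in RefSeq (GRCm38.p6), 5′ to 3′ on the strand of the gene. Capitals mark GGAAA, the core of sites for NFAT factors, and TCANGTG, the box read by MITF and TFE factors, on either strand (TTTCC and CACNTGA in the printed strand). The Acp5 window is the innermost of its 3 starts.
Ctsk, chr3:95498960-95499259, plus strand: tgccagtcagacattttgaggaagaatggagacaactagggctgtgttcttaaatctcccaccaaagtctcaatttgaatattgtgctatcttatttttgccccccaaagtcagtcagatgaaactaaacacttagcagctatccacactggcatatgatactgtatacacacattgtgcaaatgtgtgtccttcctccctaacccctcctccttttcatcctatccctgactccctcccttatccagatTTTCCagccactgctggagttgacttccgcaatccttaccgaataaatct
Acp5, chr9:22130549-22130848, minus strand: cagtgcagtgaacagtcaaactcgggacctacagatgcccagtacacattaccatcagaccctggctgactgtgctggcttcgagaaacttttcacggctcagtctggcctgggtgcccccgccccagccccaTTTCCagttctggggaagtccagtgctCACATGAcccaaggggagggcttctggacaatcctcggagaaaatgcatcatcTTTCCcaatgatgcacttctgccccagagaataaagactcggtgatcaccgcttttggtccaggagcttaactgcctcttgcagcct
Mmp14, chr14:54431348-54431647, plus strand: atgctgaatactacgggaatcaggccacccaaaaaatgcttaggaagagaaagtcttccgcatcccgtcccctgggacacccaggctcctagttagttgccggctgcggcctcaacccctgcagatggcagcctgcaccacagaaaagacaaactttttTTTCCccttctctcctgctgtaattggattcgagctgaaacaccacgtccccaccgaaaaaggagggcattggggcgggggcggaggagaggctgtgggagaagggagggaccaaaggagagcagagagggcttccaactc

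Windows were matched for 4 of the 5 members, 7 in all. GGAAA occurred once in the Ctsk and the Mmp14 window and at 2 places in that of Acp5, and it occurs in 61.3% of 32851 mouse windows of this length. TCANGTG was present at 1 place in the innermost Acp5 window, in neither of the other Acp5 windows, and in 14.3% of all windows. Of the Calcr windows, the outer had 1 match to each of these, and the inner had none. PU.1 binds cores such as GAGGAA, which stood at 2 places in the Ctsk window and in no other window of the members (28.3% of all windows). The AP-1 letters TGANTCA were absent from the members' 7 windows and present in 7.81% of all. A match is only a run of letters here, and its absence says nothing about the factor.

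Cathepsin K had the highest level of the members in each library by the deposited gene lengths. Ctsk (ENSMUSG00000028111; chromosome 3, 95499256 to 95509362 on the plus strand, GRCm38; 1 annotated transcript of 8 exons) stood at 1337 FPKM without TSH, 983 in T1 and 979.9 in T2, from 32592, 24928 and 25963 reads. The TSH libraries lay together and below the library without TSH. Among all genes Ctsk held rank 15 by FPKM without TSH, rank 33 in T1 and rank 26 in T2. Its ratio to the library without TSH was 0.736 (0.724 to 0.748) in T1 and 0.733 (0.721 to 0.745) in T2. T2 over T1 gave 0.997 (0.979 to 1.01), an interval that holds 1. With libraries brought to equal FPKM totals it was 1.02 (1.002 to 1.04), higher beyond counting error.

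The TRAP transcript was lower by a smaller step. Acp5 (ENSMUSG00000001348; chromosome 9, 22126727 to 22135711 on the minus strand; 6 transcripts) was at 972 FPKM without TSH, 857 in T1 and 822 in T2, from 31822, 29173 and 29223 reads. Each library was below the one before in this listing. Ratios to the library without TSH were 0.882 (0.868 to 0.896) in T1 and 0.845 (0.832 to 0.859) in T2. Between the TSH libraries T2 was lower, at 0.959 (0.943 to 0.974). 6530413G14Rik lies opposite to Acp5 and shares 137 exonic bases with it, but it had 2, 14 and 9 reads in RANKL alone, T1 and T2. The counting may or may not have used strand, which the labels leave unsaid.

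The gelatinase gene was next in level. Mmp9 (ENSMUSG00000017737; chromosome 2, 164940780 to 164955850 on the plus strand; up to 13 exons) was at 199 FPKM without TSH, 186 in T1 and 173 in T2, from 11377, 11041 and 10710 reads. The ratio was 0.933 (0.909 to 0.958) in T1 and 0.866 (0.844 to 0.890) in T2. Here T2 stood below T1 as well, at 0.928 (0.904 to 0.953), which is the lowest of the 3 T2 over T1 ratios among Ctsk, Acp5 and Mmp9.

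The membrane-bound protease was a low transcript. Mmp14 (ENSMUSG00000000957; chromosome 14, 54431612 to 54445364 on the plus strand; 7 transcripts) was at 4.49 FPKM without TSH, 3.90 in T1 and 3.44 in T2, from 432, 390 and 359 reads. In T1 the ratio of 0.868 had an interval from 0.755 to 0.998, whose upper end all but reaches 1. Scaled to the 4 reference genes without a near-identical copy, a scaling chosen after the data were seen, it was 0.886 (0.770 to 1.02) and no longer beyond counting error. In T2 it was 0.765 (0.663 to 0.882), and T2 over T1 was 0.881 (0.761 to 1.02).

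Transcripts of the calcitonin receptor were scarce. Calcr (ENSMUSG00000023964; chromosome 6, 3685680 to 3764714 on the minus strand; 5 transcripts, all protein-coding) had 44 reads without TSH, 27 in T1 and 22 in T2, or 0.697, 0.412 and 0.321 FPKM. Those counts are above the floor of 3 reads but leave wide intervals. The ratio was 0.590 (0.351 to 0.975) in T1 and 0.460 (0.263 to 0.784) in T2. T2 over T1 was 0.780 (0.423 to 1.42), so an order of the TSH libraries was not detectable at this depth. Transcripts of its receptor partners were nearly missing: Ramp1 and Ramp3, which turn the calcitonin receptor into an amylin receptor, had 0 reads in each library, and Ramp2, which has a near-identical copy, had a single read, in the library without TSH. That copy had 4 reads without TSH, 4 in T1 and 7 in T2, and some of these may belong to Ramp2.

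**Figure D1:**
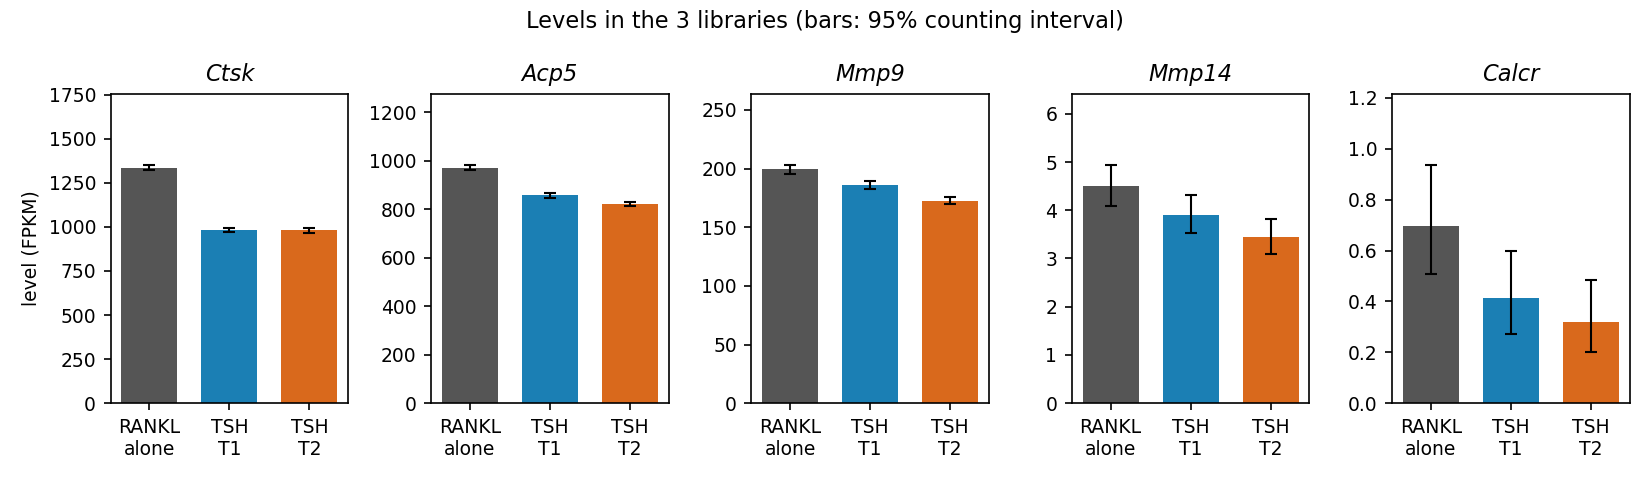
Level in FPKM (y axis, from 0, on a scale of its own for each gene) of the 5 genes in the library of RANKL alone and the TSH libraries T1 and T2, 1 library per bar, with 95% counting intervals as error bars. Ctsk stands at 1337, 983 and 979.9 FPKM, while Calcr stays under 1 FPKM throughout.

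**Figure D2:**
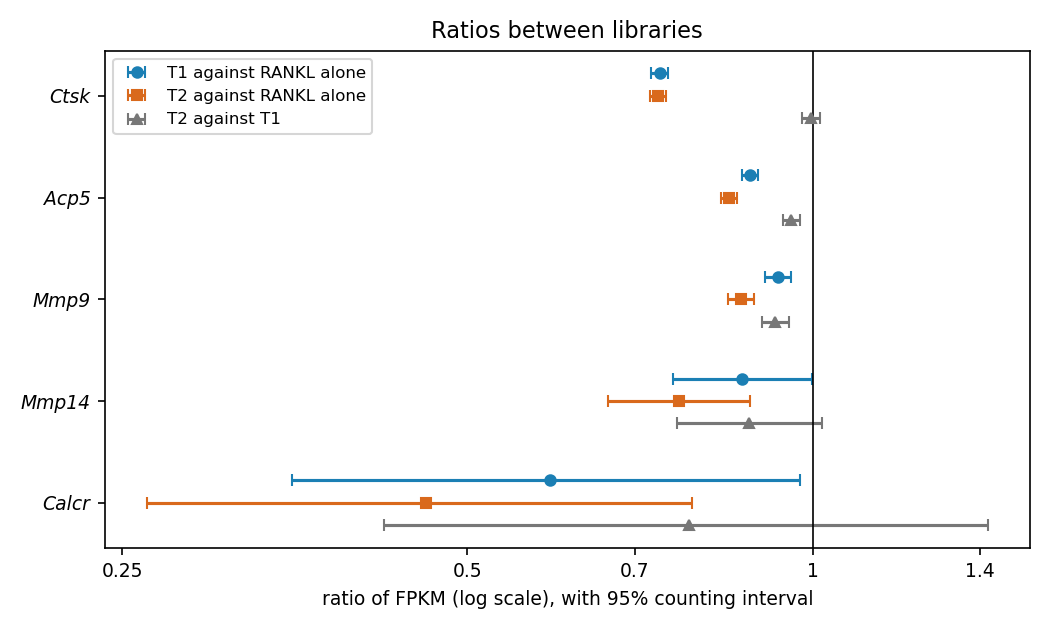
Ratio of FPKM (x axis, log scale) for each gene over RANKL alone in T1 and T2, and for T2 against T1, with 95% counting intervals. The points against the library without TSH lie left of 1 for all 5 genes, and the intervals are widest for Calcr, with 22 to 44 reads.

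The order of levels was Ctsk, Acp5, Mmp9, Mmp14 and Calcr in every library, and the counting intervals of neighbours in this order did not overlap. It rests on gene length, however. The deposited lengths are those of all exons of a gene merged, 1512 bases for Ctsk and 2030 for Acp5, while the longest coding transcript of Acp5 has 1447 bases. On that length Acp5 would be at 1364 FPKM without TSH, above Ctsk, and at 1202 in T1 and 1152 in T2. Mmp14, with 5960 merged bases and a longest coding transcript of 3238, would be at 8.27 FPKM without TSH, 7.18 in T1 and 6.33 in T2. Ratios between libraries do not depend on the length. Together the members took 0.738% of all FPKM without TSH, 0.586% in T1 and 0.584% in T2, nearly all of it Ctsk and Acp5.

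Counts over all genes give the scale for these ratios. Of the 11069 genes averaging 1 FPKM or more, 12.2% were lower and 10.8% higher beyond counting error in T1, and 13.2% and 10.2% in T2. Calcr did not pass this filter. Of the 4 members that passed it, 4 were lower and 0 higher in each TSH library. Ctsk, Acp5 and Mmp9 each had over 10000 reads. Of the 221 genes averaging that many, 33.9% were lower and 43.4% higher in T1, and 45.7% and 29.9% in T2. Of the 5446 genes with 100 to 1000 reads, where Mmp14 lies, 9.33% were lower and 8.70% higher in T1, and 9.59% and 8.45% in T2. For T2 over T1 the shares of all genes were 10.1% lower and 7.93% higher, and 2 of the 4 members, Acp5 and Mmp9, were lower. Among the 221 genes with over 10000 reads that share was 59.3%, at a median ratio of 0.972, so the count of members is no result about them. None of the members reached a log2 change of 1 on the log2(FPKM + 1) scale, which understates changes of low genes. That size was reached by 1.04% of genes in T1, 0.768% in T2 and 0.831% in T2 against T1. Without the added 1, the Calcr ratio in T2 is a log2 change of -1.12. The median log2 change (FPKM + 1) of the 4 members was -0.17 in T1 and -0.28 in T2, beside 0.00 over all genes in both. The deposited values are already scaled so that the median gene ratio is near 1, so that 0.00 was fixed in advance.

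Small ratios leave out 1 more easily where reads are many, so each member was also set beside genes within 2-fold of its mean reads. Of 129 such genes around Ctsk, 1 had a lower ratio in T1 and 1 in T2, in both cases Ckb, the gene of brain creatine kinase, at 0.708 and 0.715. Of 112 around Acp5, 9 were lower in T1 and 3 in T2, the 3 being Ctsk, Ckb and the proton pump gene Atp6v1a. Around Mmp9, 74 of 451 were lower in T1 and 18 of 451 in T2. Mmp14 had 332 of 3653 genes below it in T1 and 60 in T2. Around Calcr, at any FPKM, it was 115 of 1894 in T1 and 32 in T2. For T2 over T1, 88 of the 129 genes lay below Ctsk, 35 of the 112 below Acp5 and 28 of the 451 below Mmp9. These positions describe the 3 libraries, and both TSH comparisons share the library of RANKL alone.

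**Figure D3:**
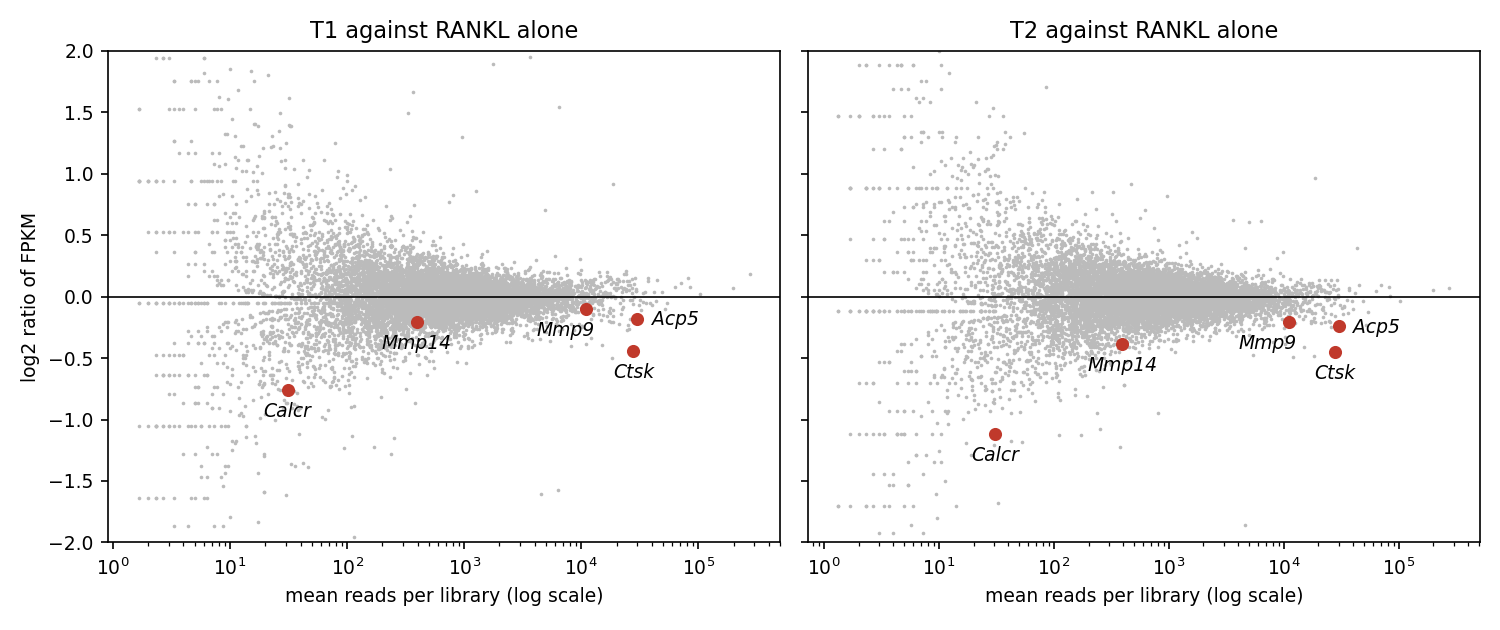
Log2 ratio of FPKM (y axis) against mean reads per library (x axis, log scale) for genes averaging 1 FPKM or more (grey) and the 5 members (red, Calcr included although below that level), in T1 and T2 against the library without TSH. Genes beyond a log2 ratio of 2, 74 in T1 and 57 in T2, are not drawn. Ctsk lies at the lower edge of the genes with as many reads in both panels, and Calcr sits where the spread from counting is wide.

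Ratios between members within a library do not depend on how libraries are scaled, and for some pairs they differed between libraries beyond counting error. The level of Ctsk was 1.38 times that of Acp5 without TSH, 1.15 times in T1 and 1.19 times in T2. For T1 that is a factor of 0.834 (0.815 to 0.854), and for T2 the factor was 0.867 (0.848 to 0.887). Ctsk over Mmp9 went from 6.71 to 5.28 in T1 and 5.67 in T2, factors of 0.788 (0.764 to 0.813) and 0.846 (0.820 to 0.873). Acp5 and Mmp9 kept closer to each other: the factor was 0.945 (0.916 to 0.974) in T1, and in T2 it was 0.976 (0.946 to 1.01), which holds 1. Ctsk over Mmp14 had a factor of 0.847 (0.736 to 0.975) for T1, and for T2 it was 0.959 (0.831 to 1.11). Of the 10 pairs, the interval left out 1 in 4 for T1, in 4 for T2 and in 3 for T2 against T1. In T2 these included Acp5 over Calcr at 1.84 (1.08 to 3.22) and Mmp9 over Calcr at 1.88 (1.10 to 3.30). Pairs of other genes were not counted, so the numbers of pairs are no result about the members. Among single genes averaging over 10000 reads, 33.9% were lower and 43.4% higher in T1, and 45.7% and 29.9% in T2.

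Genes next to the members on the chromosome were read to see whether the lower level was shared along the locus, and the names given here were picked with their values in view. Arnt, 2016 bases from Ctsk, had a T1 ratio of 0.972 (0.901 to 1.05) and in T2 stood at 0.992 (0.922 to 1.07). Ctss, the cathepsin S gene 17424 bases from Ctsk on the same strand, was at 1.09 (1.04 to 1.15) and 1.01 (0.958 to 1.06). Elof1, nearest to Acp5 among genes past the filter, was at 0.975 (0.905 to 1.05) and 0.973 (0.904 to 1.05). Mrpl52, 1856 bases from Mmp14, was at 0.991 (0.940 to 1.04) and 0.980 (0.930 to 1.03), but Lrp10, 18773 bases from Mmp14, was lower in both at 0.892 (0.842 to 0.945) and 0.783 (0.738 to 0.830). Slc7a7, 13832 bases from Mmp14, was at 0.812 (0.622 to 1.06) and 0.805 (0.619 to 1.05). Slc12a5, nearest to Mmp9, was at 0.901 (0.755 to 1.07) and 0.859 (0.720 to 1.02). Farther from Mmp9, Ctsa was lower in both at 0.955 (0.933 to 0.977) and 0.968 (0.947 to 0.990). Zfp335, also near Mmp9, was higher in T2 at 1.13 (1.03 to 1.23). With 12 reference genes as the scale, Arnt, Elof1 and Mrpl52 were also lower in T1, at 0.910, 0.914 and 0.928. Of the 12 reference genes, Ppia lay farthest from 1, at 1.89 in T1 and 1.95 in T2, so it moves that scale the most. Oxa1l, 61939 bases from Mmp14, was at 0.960 (0.900 to 1.02) in T1 and lower in T2 at 0.890 (0.835 to 0.949). In all, 25 neighbours within 100 kb had a mean of at least 1 FPKM, and 2 were lower and 4 higher beyond counting error in T1, 3 and 1 in T2. Over all genes past the filter, 12.2% were lower and 10.8% higher in T1, and 13.2% and 10.2% in T2, so the counts of neighbours are no result about the loci.

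**Figure D4:**
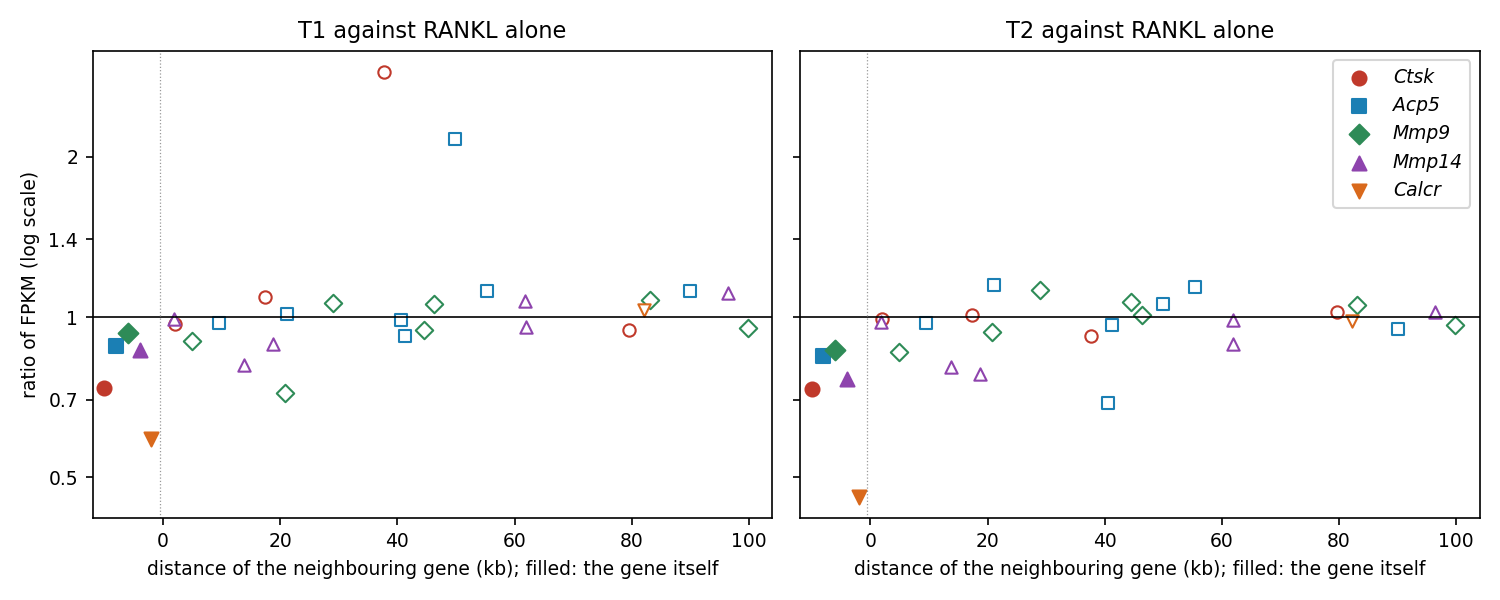
Ratio of FPKM to the library without TSH (y axis, log scale) of the 5 genes (filled, left of the dotted line) and of genes within 100 kb of each with a mean of at least 1 FPKM (open, same symbol), by distance in kb (x axis), in T1 and in T2. Most open symbols lie near 1; the highest in T1, at 2.89, is the pseudogene Gm42672, with 5 reads without TSH and 15 in T1.

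Related proteases did not all go the way of Ctsk. Of 9 other cathepsins of the papain family 7 passed the filter. In T1 2 were lower and 1 higher beyond counting error, and in T2 the same numbers held. Ctsz, the cathepsin with the highest level after Ctsk in this list, was at 681 FPKM without TSH, 614 in T1 and 612 in T2, a ratio of 0.901 (0.881 to 0.921) and 0.898 (0.878 to 0.918). Ctsb had ratios of 0.827 (0.812 to 0.841) and 0.873 (0.858 to 0.889). The higher gene was Ctss in T1, a call lost with 12 reference genes as the scale, and Ctsl in T2 at 1.15 (1.09 to 1.21). Cystatins block these proteases: Cstb was lower at 0.896 (0.866 to 0.926) and 0.884 (0.856 to 0.914), and Cst3 was at 0.992 (0.968 to 1.02) in T1 and 0.918 (0.895 to 0.941) in T2.

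Acp5 differed from the other acid phosphatases first in level. Of 6 such genes 3 passed the filter, each at about 10 FPKM or less, with Acp2, the lysosomal acid phosphatase gene, at 10.1 FPKM without TSH and 1 of the 3 lower beyond counting error. Acp2 was at 0.864 (0.782 to 0.954) in T1, and its T2 ratio was 0.870 (0.789 to 0.960). Acp1 was at 1.06 (0.940 to 1.20) and 0.986 (0.873 to 1.11). Some reads of Acp1 may belong to 2 near-identical copies.

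Mmp9 and Mmp14 stood almost alone among the matrix metalloproteases. Of 19 others 1 passed the filter, Mmp19, at 1.32 FPKM without TSH and with ratios whose intervals hold 1, and 8 had 0 reads in all libraries. Of 11 inhibitors, activators and binding partners 6 passed, and 4 of these were lower in T1 and 5 in T2 with 0 higher. Over all genes past the filter the lower share was 12.2% in T1 and 13.2% in T2. At 1000 to 10000 reads, where Bsg, Cd44, Furin and Plaur lie, it was 18.5% and 20.7%. The T2 call of Plaur, at 0.919 (0.847 to 0.996), is lost with the uncopied reference genes, which raise T2 ratios by 2.22%. Plau, encoding urokinase, a protease that activates plasminogen and through it metalloproteases, was at 295 FPKM without TSH, 249.9 in T1 and 226 in T2. Its ratios were 0.846 (0.824 to 0.870) and 0.764 (0.744 to 0.786). Bsg, encoding the metalloprotease inducer basigin, was at 0.950 (0.915 to 0.986) and 0.939 (0.905 to 0.975), the former within counting error of 1 with the uncopied reference genes. Timp2, the inhibitor that also links MMP14 to its substrate MMP2, was low, at 2.32, 1.76 and 1.70 FPKM in RANKL alone, T1 and T2. Furin, which cuts MMP14 into its active form, was at 0.963 (0.922 to 1.01) and 0.981 (0.940 to 1.02).

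For the receptor, 1 of 9 partner and ligand genes passed the filter, Calcrl, the receptor gene for the related peptides CGRP and adrenomedullin, at 1.87, 2.10 and 2.06 FPKM in RANKL alone, T1 and T2. Its ratios of 1.13 (0.898 to 1.41) and 1.10 (0.880 to 1.38) hold 1.

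Transcription factors known to act on these genes went several ways. Of 11, all past the filter, 2 were lower and 3 higher in T1, and 4 were lower and 1 higher in T2, with 0 higher in either where libraries were scaled to 12 reference genes. Spi1, encoding PU.1, had ratios of 0.938 (0.914 to 0.963) and 0.910 (0.886 to 0.934). Nfatc1, the factor that drives osteoclast differentiation, had ratios of 1.05 (1.03 to 1.07) and 0.961 (0.943 to 0.980), but its T1 ratio turned to 0.983 (0.964 to 1.002) with 12 reference genes as the scale. Its T2 ratio was 0.983 (0.964 to 1.002) with the uncopied reference genes, which holds 1 as well. Jun, an AP-1 subunit gene, was at 0.759 (0.663 to 0.868) and 0.693 (0.604 to 0.794). In the list of matrix attachment and TRAP substrates, 4 of 5 genes passed and all 4 were lower in both TSH libraries. They were Spp1, the osteopontin gene, at 0.793 (0.772 to 0.814) and 0.952 (0.928 to 0.975), the integrin genes Itgav, at 0.865 (0.847 to 0.883) and 0.872 (0.854 to 0.890), and Itgb3, and the kinase gene Src. Over all genes past the filter, 12.2% were lower and 10.8% higher in T1, and 13.2% and 10.2% in T2. At 1000 to 10000 reads, where Itgb3 and Src lie, the lower shares were 18.5% in T1 and 20.7% in T2. Above 10000 reads, where Spp1 and Itgav lie, they were 33.9% and 45.7%. The median log2 change (FPKM + 1) of the attachment list was -0.23 in each TSH library, beside 0.00 over all genes, a value fixed by the deposited scaling.

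**Figure D5:**
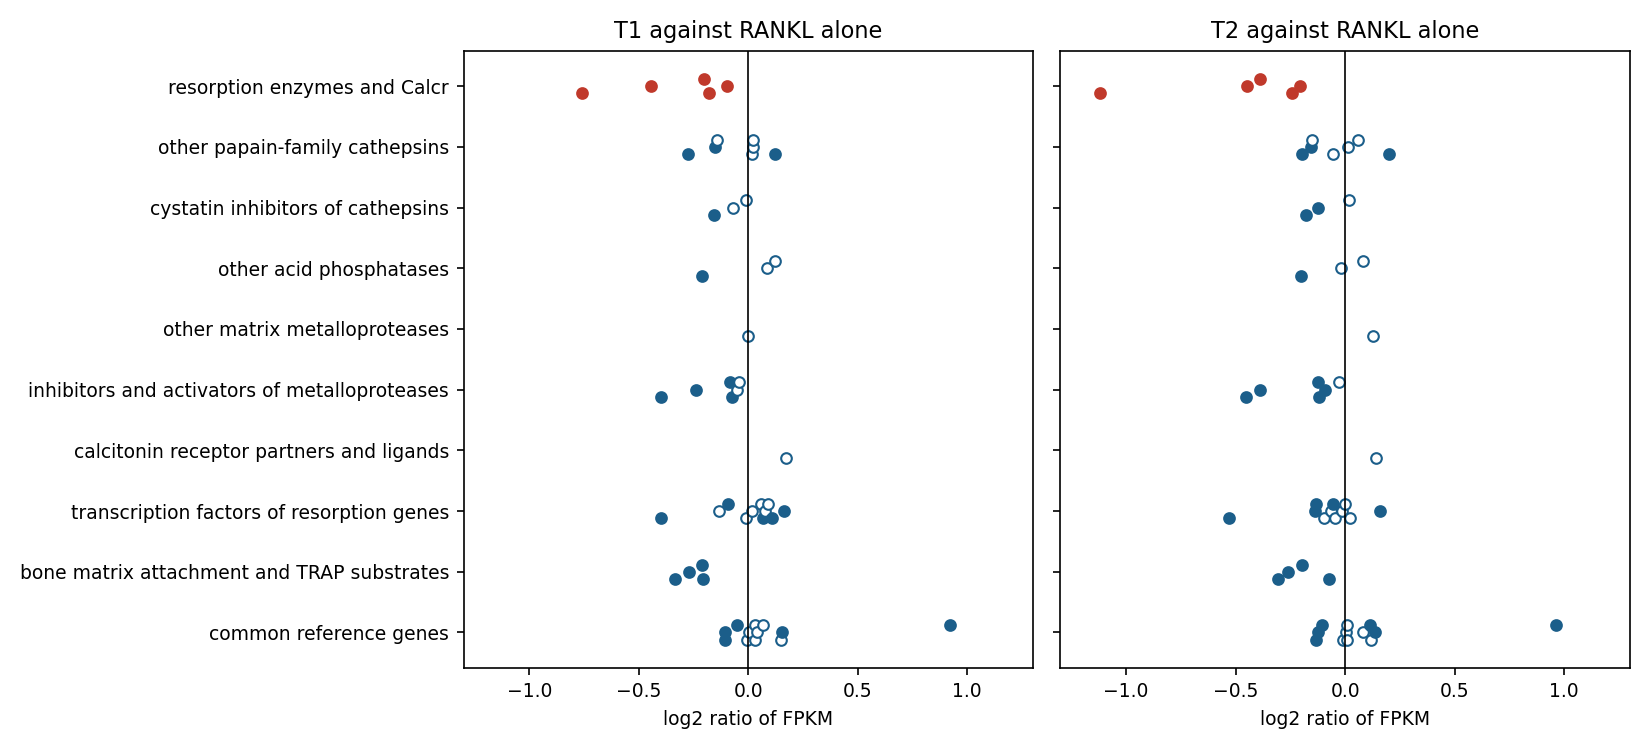
Log2 ratio of FPKM (x axis) in T1 and T2 against the library without TSH for the 5 members (red) and for genes past the filter in each list (blue); filled points have a 95% counting interval that leaves out no change. The 5 members and the 4 attachment genes lie left of 0 in both panels, and the far right point among the reference genes is Ppia, with ratios of 1.89 and 1.95 and 27 near-identical copies.

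Over the 3 libraries, the genes nearest to each member in their 2 log2 ratios to the library without TSH were sought among 3954 genes averaging 1000 reads or more, which share that library. Nearest to Ctsk were Gpnmb, a transmembrane glycoprotein gene, at a distance of 0.06 with ratios of 0.762 and 0.754, Ckb at 0.07 and the TGF-beta receptor gene Tgfbr1 at 0.09. Of the 3954 genes, 2 others lay at or below Ctsk in both ratios. Acp5 had neighbours within 0.0113, Scpep1, Mut and Letm1, and Mmp9 had Drap1, Ext2 and Sri. The nearest to Mmp14 were Prdm1, at 0.862 and 0.777, Plau and Lrp10. Mmp14 itself had 359 to 432 reads, under the limit of 1000 set for the other genes. Its T1 ratio had an interval of 0.755 to 0.998, so its reads do not settle which genes lie nearest. Calcr, with fewer reads still, was not placed.

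Markers were read beside these results. Of 8 osteoclast markers other than the members, all passed the filter, and Nfatc1 and Itgb3 stand in the lists above too. Beyond counting error 4 were lower and 1 higher in T1, and 8 were lower in T2. Of all genes past the filter, 12.2% were lower and 10.8% higher in T1, and 13.2% and 10.2% in T2. The lower share in T2 was 20.7% at 1000 to 10000 reads and 45.7% above 10000. With the uncopied reference genes, which raise T2 ratios by 2.22%, the T2 call of Nfatc1 is lost. The T2 interval of Dcstamp, 0.894 to 0.981 by the deposited scale, ends so near 1 that this rise loses its call as well. The summed level of the osteoclast markers was 896 FPKM without TSH, 825 in T1 and 802 in T2, with Tcirg1 the most abundant at 265.3, 238 and 242 FPKM. Of 8 macrophage markers 6 passed, with 3 lower and 3 higher in T1 and 3 and 2 in T2, and sums of 1173, 1155 and 1153 FPKM. Cd68 led these at 578, 562 and 548 FPKM and was lower in both, though not beyond counting error in T1 with the uncopied reference genes. Csf1r and Ptprc, also named with their values in view, were lower in both too. Csf1r was at 0.956 (0.941 to 0.971) and 0.953 (0.938 to 0.968), and Ptprc at 0.911 (0.864 to 0.961) and 0.925 (0.878 to 0.975). Others were higher, and are named with their values in view: Lyz2, the lysozyme gene, was at 1.08 (1.03 to 1.12) and 1.15 (1.10 to 1.20), and Adgre1, which encodes F4/80, was at 1.41 (1.08 to 1.85) and 1.34 (1.02 to 1.76). Itgam, encoding CD11b, was at 1.52 (1.15 to 2.01) in T1, while in T2 its 0.888 (0.647 to 1.22) holds 1. With 12 reference genes Lyz2 in T1 and Adgre1 in T2 hold 1. Osteoblast and fibroblast markers passed the filter in 0 of 8 cases and summed to 0.348, 0.374 and 0.248 FPKM, with Bglap, Col1a2 and Lum at 0 reads. Neutrophil markers passed in 0 of 8, with sums of 0.207, 0.0780 and 0 FPKM. Lck, at 1.25, 1.04 and 1.31 FPKM, was the 1 of 8 lymphocyte markers that passed. The part of these markers' shifts in the members' ratios was not tested. The 12 reference genes counted 3 lower and 2 higher in T1 and 3 and 3 in T2. Actb was at 0.966 (0.955 to 0.978) and 0.918 (0.907 to 0.929). Rplp0 was at 1.11 (1.09 to 1.13) and 1.10 (1.08 to 1.12) and has 5 near-identical copies, which held 28832 reads without TSH beside its own 25805.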

How the data were processed

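RNA of 3 libraries of RAW264.7 cells was measured, 1 library per group. The authors deposited FPKM for 54532 genes with 1 gene length per gene; GRCm38 and mm10 are the builds named by the submitters' processing notes. Neither aligner nor counter nor strand setting is named; these were not given in the sources used here. RANKL alone was known by its column name, and 0 per-sample columns were unused.

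Multiplied by gene length, FPKM values of a library were whole multiples of 1 step, within 0.01, for 100% of values above 0, which gave the reads (16156926, 16809034 and 17390744). Depths implied by the steps differed from these sums by up to 0.763% and matched median-of-ratios scaling. PCR copies are not independent molecules, so intervals and the floor of 3 reads cover counting error only. Ratios of FPKM carry exact conditional 95% intervals; pair changes carry exact conditional odds ratio intervals. The filter was a mean of 1 FPKM and the size rule a log2(FPKM + 1) change of 1. Functions were checked on simulated reads.

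Members, 9 gene lists and 5 marker lists were chosen with earlier results of these data known. Named were the members, the 2 most abundant genes of each list and any past the size rule, the most abundant marker of each type and the 3 genes nearest to each member; others were named after their values were seen. Identifiers matched GENCODE M21 in 99.8% of cases, with the same coordinates in 98.3% of these. Copies were sought with BLAST+ 2.17.0 (95% identity, 100 bases or more, 50% of the shorter transcript); the 5 members had 0. Promoter windows are from RefSeq. Alternatives were other scalings, pseudocounts, filters and folds. Python 3.11.15, numpy 2.4.6, pandas 2.3.3, scipy 1.17.1 and matplotlib 3.10.9 were used.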

Additional observations from a re-analysis of the deposited data

Results flagged for a closer look

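The level of Nfatc1 was higher in one TSH library and lower in the other, with a ratio to RANKL alone of 1.05 in T1 and 0.961 in T2, both beyond counting error by the deposited scale. With 12 reference genes as the scale the T1 ratio was 0.983 and its interval holds 1, so the opposite directions are lost, and with the uncopied reference genes the T2 ratio was 0.983 and holds 1. Ppia, at 1.89 in T1 and 1.95 in T2, moves the scale of 12 genes the most. Its near-identical copies had 9928 reads without TSH, 4603 in T1 and 4227 in T2. The log2 ratio in T2 minus that in T1 was -0.125. The difference was not tested, since there is 1 library per group. The members went one way in both.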

How the results depend on the processing

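No paired analysis was possible because each group has 1 library. The ratios of the 5 members to RANKL alone stayed below 1 under all scalings, 5 of 5 beyond counting error except in T1 with the 4 uncopied reference genes, a scaling chosen after the data were seen, where it was 4. Median-of-ratios scaling could move nothing, since the deposited FPKM already carry it, and is no support. With 12 reference genes, ratios of Ctsk, Acp5 and Mmp9 were 0.689, 0.826 and 0.875 in T1 and 0.690, 0.795 and 0.815 in T2. Genes lower beyond counting error then numbered 3545 in place of 1355 in T1 and 3520 in place of 1461 in T2. Ppia, at 1.89 in T1 and 1.95 in T2, moves that scale the most. It and others of the 12 have near-identical copies. With uncopied reference genes Ctsk and Acp5 came to 0.750 and 0.899 for T1, and for T2 to 0.7495 and 0.864. With equal FPKM totals these genes were at 0.723 and 0.866 in T1. For T2 against T1 that scaling gave Ctsk 1.02 (1.002 to 1.04), then above 1 beyond counting error, Acp5 0.981, and 623 genes lower in place of 1117. Genes past the size rule in T1, T2 and T2 against T1 numbered 115, 85 and 92, and 219, 197 and 176 with a pseudocount of 0.1 FPKM, 17, 8 and 13 with 5 FPKM, 223, 208 and 201 without filter, 25, 13 and 16 with a mean of at least 5 FPKM, and 290, 272 and 251 at 1.5-fold; 0 of 5 members passed in each. Nfatc1 in T1 turned from 1.05 to 0.983 with 12 reference genes. Depth limits Calcr, with 22 to 44 reads, and Mmp14 in T1.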
